A study of Mus musculus with 6 samples.

Results

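The satellite cell and myogenic factors described here are 9 genes, Pax7, Myf5, Myod1, Myog, Myf6, Cdh15, Mymk, Megf10 and Mef2c, taken by symbol from the 16180 genes of the authors' normalized table and matched by Ensembl identifier to the 51912 genes of their raw count table. All 9 passed the filter on low counts and were among the 14696 genes tested. None of them passed an adjusted p of 0.05 between the genotypes. Myf5 stood lowest in HET mice against WT mice, with 4.02 ± 0.259 CPM against 6.05 ± 0.323 CPM (SD, n = 3 each), where CPM is the raw count scaled by library size and TMM factor.

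Satellite cells are the stem cells of skeletal muscle, lying between the fiber membrane and the basal lamina, and Pax7 is the transcription factor that marks and maintains them. When they are activated, the myogenic regulatory factors (MRFs) act in sequence: Myf5 and MyoD (Myod1) commit the cell to the muscle lineage, myogenin (Myog) drives differentiation, and MRF4 (Myf6) prevails in mature fibers. MRFs pair with E proteins on DNA motifs called E-boxes and work together with MEF2 factors such as Mef2c, while M-cadherin (Cdh15) holds the cells to the fiber, myomaker (Mymk) allows membrane fusion, and Megf10 is a cell surface receptor that affects satellite cell proliferation.

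RNA was sequenced from the soleus, a slow calf muscle, of 3 HET and 3 WT mice, with 1 polyA library per mouse. All 6 mice were 8 weeks old and of the strain C57BL6/N. HET mice carried in every cell 1 Mustn1 KO-first allele, in which exon 1 is spliced into a lacZ trap followed by a neo cassette, and 1 intact allele, and WT mice were littermates with 2 intact copies. Each library came from 1 mouse, and which mice shared a litter is not given in the sources used here. Libraries held between 26790075 and 50368796 reads on genes, with WT mouse 3 the deepest. The labels state the sex as male, whereas Xist was counted with 3858 to 9154 reads per library. Uty, Eif2s3y, Kdm5d and Ddx3y of the Y chromosome summed to 0 to 12 reads. These reads are those of female mice in all 6 libraries and contradict the label.

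Mustn1, the targeted gene, was measured at 12.6, 16.8 and 13.1 CPM in HET mice 1 to 3 and at 23.1, 29.0 and 30.5 CPM in WT mice 1 to 3. The genotypes did not overlap, and the log2 fold change of HET against WT was -0.96 (SE 0.15), with a Benjamini-Hochberg adjusted p of 0.0452 in the quasi-likelihood test of edgeR. Mustn1 was the 1 gene called lower, and its log2 fold change lay between -1.09 and -0.88 over the 16 alternatives. It was called in 10 of them and not in the other 6, with an adjusted p of 0.0673 with limma-voom, of 0.0606 with non-robust dispersion in edgeR, and of 0.137, 0.280, 0.0659 and 0.125 by edgeR without HET mouse 1, HET mouse 3, WT mouse 1 and WT mouse 2. Slow fiber markers were present as the tissue label says, and Myh7, the slow myosin heavy chain, lay between 13642 and 14766 CPM in the 6 mice. The fast fiber marker Myh2 lay between 12653 and 16003 CPM, so the slow markers alone do not identify the muscle.

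The 9 genes differed widely in level, which was compared per exon length as RPKM over the 6 mice. Mef2c, with 67.5 ± 5.09 RPKM (SD, n = 6), and Myf6, with 61.3 ± 6.40 RPKM, led the order, and their ranges over mice overlapped. This closeness depends on the exon length used, 15715 bases for Mef2c and 1263 for Myf6. In CPM the means were 1034 for Mef2c and 79.8 for Myf6 in HET mice, and 1088 and 75.0 in WT mice. Myod1 followed at 10.6 ± 2.57 RPKM, so that Myf6 stood 5.76-fold above it. Cdh15 came next with 8.59 ± 0.805 RPKM and then Myog with 7.84 ± 1.75 RPKM. Myod1 overlapped with Cdh15 and Cdh15 with Myog, and there was no overlap between Myf6 and Myod1 or between Myog and Myf5. Myf5 followed at 2.42 ± 0.548 RPKM and overlapped with neither neighbor. Pax7 with 1.35 ± 0.144 RPKM, Mymk with 0.923 ± 0.319 RPKM and Megf10 with 0.822 ± 0.157 RPKM were the lowest, again with overlap between neighbors. The MRF of mature fibers and the MEF2 factor were measured far above the factors of satellite cells and their early progeny in this whole muscle RNA.

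**Figure D1:**
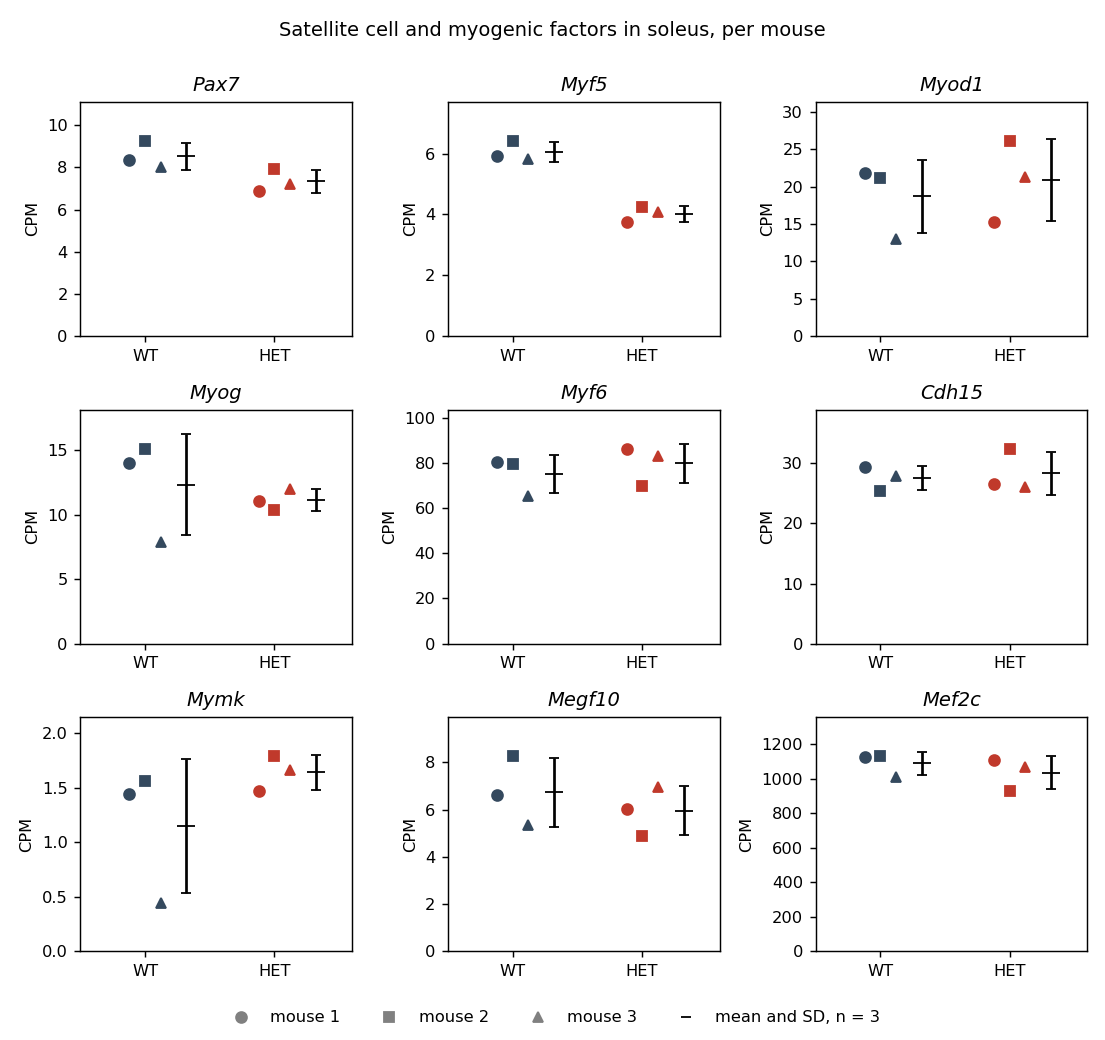
Level of each gene in CPM (vertical axes, from 0) in the 3 WT (dark) and 3 HET (red) soleus libraries. Symbols give the mouse number and the bar beside each group gives the mean with its SD. Myf5 and Pax7 are lower in every HET mouse than in every WT mouse, and WT mouse 3 is the lowest of the 6 for Myod1, Myog, Myf6 and Mymk.

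Myf5 (ENSMUSG00000000435) is an MRF gene on the minus strand of chromosome 10, at chr10:107482908-107486134 in GRCm38. It was counted with 140, 114 and 179 reads in HET mice 1 to 3 and with 177, 181 and 287 reads in WT mice 1 to 3. In CPM these were 3.74, 4.25 and 4.08 in HET and 5.92, 6.42 and 5.81 in WT. Every HET mouse lay below every WT mouse. Within a genotype the coefficient of variation (CV, the SD over the mean) was 6.4% in HET and 5.3% in WT. Counting alone gives 8.3% and 6.8% at these reads, so the closeness of the mice is no measure of precision. The log2 fold change was -0.59 (SE 0.15, 95% interval -0.92 to -0.26), a change of -33.5%, with an unadjusted p of 0.00231 and an adjusted p of 0.197 by edgeR. The adjusted p lay between 0.138 and 0.574 over the 16 alternatives tried, so the difference did not pass the threshold in any of them. In bulk RNA, fewer cells of a type and less RNA of the gene per cell cannot be told apart.

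Of all genes tested, 6.02% had every HET mouse below every WT mouse, and 7.55% had every HET mouse above. Among the 9 genes these were 2, Pax7 and Myf5, and 0, respectively. At an unadjusted p below 0.05, 1 of the 9 was counted, Myf5, and it was also the only one with DESeq2 and with limma-voom, while 0 of the 9 passed an adjusted p of 0.05 with any of these tools. Over all genes tested, edgeR gave 7.76% at that unadjusted p, with 294 lower and 846 higher, and 0.150% at an adjusted p of 0.05, with 21 genes higher and 1 lower. The median log2 fold change was -0.07 over the 9 genes, 4 above and 5 below 0, and -0.02 over all genes.

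Pax7 (ENSMUSG00000028736, minus strand, chr4:139737062-139833528) was counted with between 212 and 396 reads per library. It was measured at 6.86, 7.90 and 7.22 CPM in HET mice 1 to 3 and at 8.33, 9.26 and 8.02 CPM in WT mice 1 to 3. The genotypes did not overlap, although the highest HET mouse came within a small distance of the lowest WT mouse. Means were 7.33 ± 0.526 CPM in HET and 8.54 ± 0.643 CPM in WT (SD, n = 3 each). HET and WT differed by a log2 fold change of -0.22 (SE 0.13, 95% interval -0.51 to 0.07), and with an adjusted p of 0.807 by edgeR it did not pass the test.

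The reads of Myf5 were also set against those of the other genes in the same library, a ratio that needs no scaling between libraries. These ratios were chosen after the values were seen and are given without a test. Per read of Pax7, Myf5 had 0.545, 0.538 and 0.565 reads in HET mice 1 to 3 and 0.711, 0.693 and 0.725 reads in WT mice 1 to 3. The WT mice thus held more Myf5 per Pax7 than any HET mouse, with means of 0.710 ± 0.0157 and 0.549 ± 0.0140 (SD, n = 3 each). These SDs are narrower than counting alone would give. At the reads of Myf5 and Pax7, the counting CV was 8.3% and 6.2% in HET and 6.8% and 5.8% in WT. The closeness of the ratios within a genotype is thus no measure of their precision. The ratio of Myf5 was lower in every HET mouse also over Myod1, Myog, Myf6, Cdh15, Mymk and Mef2c, and it overlapped between the genotypes over Megf10. These ratios share the reads of Myf5, which was already lower in every HET mouse in CPM. They are not independent of each other or of that difference, and add no support to it. Over Pax7, Mymk and Cdh15 were higher in every HET mouse, and Myod1, Myog, Myf6, Megf10 and Mef2c overlapped. Pax7 was itself lower in every HET mouse in CPM, which raises ratios over it in HET. For Cdh15 the lowest HET ratio was 3.60 and the highest WT ratio 3.52, and in CPM its genotypes overlapped. How many of all genes would not overlap in such ratios was not counted.

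**Figure D2:**
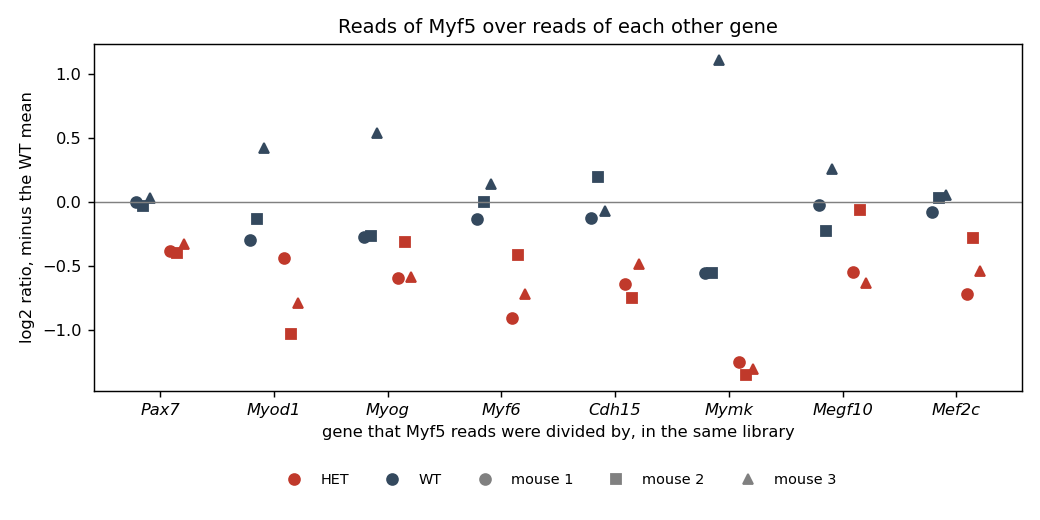
Reads of Myf5 divided by the reads of each of the 8 other genes in the same library (horizontal axis), as log2 after subtraction of the mean of the 3 WT mice (vertical axis), for WT (dark) and HET (red), with the symbol giving the mouse number. Over Pax7 the WT ratios lie between 0.693 and 0.725 and the HET ratios between 0.538 and 0.565, and over Megf10 the genotypes overlap.

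Myod1 (ENSMUSG00000009471, plus strand, chr7:46376474-46379099) was measured at 15.3, 26.2 and 21.3 CPM in HET mice and at 21.9, 21.2 and 13.1 CPM in WT mice. The genotypes overlapped, with HET mouse 1 and WT mouse 3 low and HET mouse 2 high. With a log2 fold change of 0.16 (SE 0.24, 95% interval -0.39 to 0.72) and an adjusted p of 0.941 by edgeR, Myod1 did not pass the test.

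Myog (ENSMUSG00000026459, plus strand, chr1:134289989-134292548) was measured at 11.1, 10.3 and 12 CPM in HET mice and at 14.0, 15.1 and 7.84 CPM in WT mice. WT mice 1 and 2 were above all HET mice, and WT mouse 3 was below all of them, so the genotypes overlapped. The log2 fold change was -0.14 (SE 0.22, 95% interval -0.62 to 0.35), with an adjusted p of 0.944 by edgeR. Without WT mouse 3 it was -0.39, with an adjusted p of 0.423.

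The DNA just upstream of Myf5 and of Myog is shown because these are the MRF gene with the lowest fold change and the MRF gene known as a target of both MRFs and MEF2 factors. Each line holds the 250 bases before the RefSeq start of the gene in GRCm38.p6, 5′ to 3′ along the gene, at chr10:107486135-107486384 on the minus strand for Myf5 and at chr1:134289754-134290003 on the plus strand for Myog. Capitals mark matches to the E-box, CANNTG, whose pattern is the same on both strands, and to CTANNNNTA on either strand, the ends of the usual MEF2 motif.
Myf5: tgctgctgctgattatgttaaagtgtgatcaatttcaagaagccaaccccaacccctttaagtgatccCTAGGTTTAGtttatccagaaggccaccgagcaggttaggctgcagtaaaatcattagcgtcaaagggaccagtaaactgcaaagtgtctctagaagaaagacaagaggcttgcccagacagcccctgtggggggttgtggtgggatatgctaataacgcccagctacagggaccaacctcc
Myog: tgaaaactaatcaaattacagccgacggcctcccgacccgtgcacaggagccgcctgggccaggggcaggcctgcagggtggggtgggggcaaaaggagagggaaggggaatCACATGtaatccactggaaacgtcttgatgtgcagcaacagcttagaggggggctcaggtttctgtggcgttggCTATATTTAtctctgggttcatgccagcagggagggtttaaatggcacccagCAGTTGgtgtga
The Myog window held 2 E-boxes, CACATG with its 5′ base 138 bases upstream of the start and CAGTTG 12 bases upstream, and CTATATTTA 64 bases upstream. Its last 15 bases, with CAGTTG, lie inside the gene as counted, since the count table starts Myog further upstream than RefSeq does. The Myf5 window held no E-box and 2 matches that overlap each other, CTAGGTTTA at 182 bases upstream and TAGGTTTAG, a match to CTANNNNTA on the other strand, at 181. The bases marked N were left free, so a match covers only the ends of the MEF2 motif. Of all 32851 RefSeq windows of this length, 66.2% held an E-box and 19.0% held CTANNNNTA. These are matches of letters and say nothing of binding.

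Myf6 (ENSMUSG00000035923) lies on the same strand as Myf5 at chr10:107492853-107494737, with 6718 bases between the genes. It was measured at 86.4, 70.0 and 83.0 CPM in HET mice and at 80.2, 79.5 and 65.3 CPM in WT mice. Each genotype had its own low mouse, HET mouse 2 and WT mouse 3, and the genotypes overlapped. For Myf6 the log2 fold change was 0.09 (SE 0.11, 95% interval -0.16 to 0.34), with an adjusted p of 0.923 by edgeR. The interval did not meet that of its neighbor Myf5, although the difference between the genes was not tested.

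Mef2c (ENSMUSG00000005583, plus strand, chr13:83504034-83667080) was measured at 1108, 927 and 1066 CPM in HET mice and at 1126, 1130 and 1009 CPM in WT mice. It varied least of the 9 genes over the 6 mice, with the highest 1.22-fold above the lowest, and the genotypes overlapped. The log2 fold change was -0.07 (SE 0.10, 95% interval -0.29 to 0.14), with an adjusted p of 0.929 by edgeR.

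Cdh15 (ENSMUSG00000031962, plus strand, chr8:122847966-122867397), the adhesion protein of the satellite cell niche, was measured at 26.6, 32.5 and 26.0 CPM in HET mice and at 29.3, 25.5 and 27.8 CPM in WT mice. HET mouse 2 was the highest, and the genotypes overlapped. Between the genotypes the log2 fold change was 0.04 (SE 0.11, 95% interval -0.21 to 0.29), with an adjusted p of 0.973 by edgeR. Cdh15 is thus a satellite cell gene whose interval spans 0 nearly evenly. Pax7 and Myf5 were lower in every HET mouse, but the interval of Pax7, -0.51 to 0.07, also spanned 0 and overlapped that of Cdh15.

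Mymk (ENSMUSG00000009214, minus strand, chr2:27061636-27072179) had the fewest reads, with 55, 48 and 73 in HET mice and 43, 44 and 22 in WT mice. In CPM it was 1.47, 1.79 and 1.66 in HET mice and 1.44, 1.56 and 0.446 in WT mice. WT mice 1 and 2 were near the HET mice, and WT mouse 3 was low, with the lower of the other WT mice 3.23-fold above it. The log2 fold change was 0.56 (SE 0.41, 95% interval -0.34 to 1.46), with an adjusted p of 0.857 by edgeR, and it was 0.13 without WT mouse 3.

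Megf10 (ENSMUSG00000024593) was measured at 6.01, 4.88 and 6.95 CPM in HET mice and at 6.62, 8.26 and 5.35 CPM in WT mice. The mice of both genotypes were interleaved. Megf10 had a log2 fold change of -0.17 (SE 0.19, 95% interval -0.60 to 0.26), with an adjusted p of 0.918 by edgeR.

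**Figure D3:**
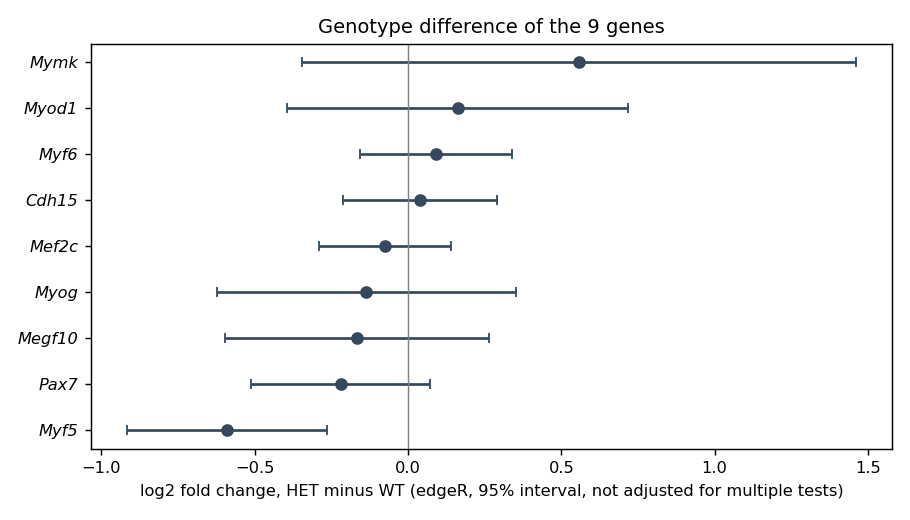
Log2 fold change of HET against WT with its 95% interval, not adjusted for multiple tests (horizontal axis), for the 9 genes (vertical axis) from edgeR over 3 mice per genotype. The interval of Myf5, -0.92 to -0.26, lies below 0 and the intervals of the other 8 genes span 0.

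WT mouse 3 set much of the spread of these genes. It was the lowest of the 6 mice for Myod1, Myog, Myf6 and Mymk, the 3 MRF genes other than Myf5 and the fusion gene, while for Pax7 and Myf5 the lower of the other WT mice was only 1.04-fold and 1.02-fold above it. Pax7 and Myf5 were lowest in HET mouse 1, Cdh15 in WT mouse 2, and Megf10 and Mef2c in HET mouse 2. How many of all genes were lowest in WT mouse 3 was not counted. The library of WT mouse 3 was the deepest, and the part of depth in these values was not tested.

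For each gene, the genes whose pattern over the 6 mice was nearest were found by the root mean square difference of centered log2 CPM. Mef2c had the nearest ones, Psma4 at 0.011 and Dnajc2 at 0.02, followed by Myf6 with Sergef at 0.03 and Canx at 0.04. For Cdh15 these were Cand2 and Cops7a, both at 0.03, and for Pax7 Cdkn2d and Cabp1, both at 0.05. For Myf5 they were Gm47708 at 0.08 and Lrp2bp at 0.09, and for Mymk Mycn at 0.11 and Lrrc3b at 0.13. The nearest to Myod1 were 4931428F04Rik and Has3, both at 0.11, to Myog Gm7118 and Gm49359, both at 0.08, and to Megf10 Dclre1c and Ndufaf4, both at 0.06. The distances are not scaled to the spread of each gene, so a gene that varies little has small ones. By the same measure Mef2c varied around its own mean by 0.10 and Mymk by 0.64. The order of the distances is therefore no order of how alike the patterns are. With 6 mice these distances describe the libraries and carry no test.

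Around the 9 genes, 120 genes on 6 lists were examined, and 0 of those tested passed an adjusted p of 0.05 with edgeR, DESeq2 or limma-voom. EdgeR gave 6 higher and 5 lower over the lists at an unadjusted p below 0.05, each of which is counted with its list. Over all genes tested, 7.76% were at that unadjusted p, with 846 higher and 294 lower. The genes named below at that p are therefore given as description and not as results about the lists. On the list of satellite cell surface and niche genes, 20 of 22 were tested, with 12 above 0, 8 below 0 and a median log2 fold change of 0.04. Calcr, the calcitonin receptor of quiescent satellite cells, stood at the low end with -0.47 and Tenm4, a teneurin, at the high end with 0.48. The list held 2 higher at an unadjusted p below 0.05, Cd9 and Cd34, and 0 lower, and Cd34 is also made by endothelial and interstitial cells. Calcr was measured at 2.14 ± 0.730 CPM in HET and 2.95 ± 0.616 CPM in WT (SD, n = 3 each), and the genotypes overlapped. Calcr and Chrdl2, at -0.36, were the lowest of this list and also stand, with Pax7, Myf5 and Cdh15, on the list of 5 satellite cell markers, where 4 were below 0, 1 was above 0, and 0 passed the adjusted threshold with edgeR, DESeq2 or limma-voom, with 1, Myf5, at an unadjusted p below 0.05. On the surface and niche list as a whole, 12 of 20 were above 0.

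Notch signaling, known for keeping satellite cells quiescent, had 19 of 19 genes tested, with 9 above 0, 10 below 0 and a median of -0.01, which was 0.02 with upper quartile factors. Its range ran from Dlk1, a Notch ligand homolog, at -0.56 to the receptor Notch2 at 0.33. It held 1 higher at an unadjusted p below 0.05, Notch2, with 14.9 ± 1.67 CPM in HET and 11.8 ± 0.828 CPM in WT, and 1 lower, the Notch target Hey1, with 7.12 ± 0.432 CPM in HET and 9.05 ± 0.812 CPM in WT. Both of these had genotypes that did not overlap, and neither passed the adjusted threshold, with adjusted p of 0.477 and 0.499 by edgeR.

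Partners and coactivators of the MRFs had the narrowest range of the 6 lists, from Mef2a at -0.15 to the E protein gene Tcf3 at 0.20, with 17 of 18 tested, 6 above 0, 11 below 0 and a median of -0.04. At an unadjusted p below 0.05 edgeR gave 0 genes in either direction, and Tcf3 was above WT in every HET mouse. Inhibitors of MRFs and MEF2 factors had 19 of 20 tested, with 10 above 0, 9 below 0 and a median of 0.07, which was near 0 with the GC trend removed. They ranged from Msc, a bHLH repressor, at -0.47 to Twist1 at 1.13. Twist1, a bHLH factor that binds E proteins and is also made by connective tissue cells, was measured at 2.35 ± 0.578 CPM in HET and 1.07 ± 0.533 CPM in WT (SD, n = 3 each), with an adjusted p of 0.356 by edgeR. At an unadjusted p below 0.05 this list held 2 higher, Twist1 and Snai1, and 2 lower, Id1 and Bhlhe41.

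Genes of differentiation, fusion and early muscle had 20 of 22 tested, with 10 above 0, 10 below 0 and a median of -0.01, which was 0.02 with upper quartile factors. The ends were Chrna1, a subunit of the acetylcholine receptor and known MRF target, at -0.26, and Chrng, the fetal subunit of that receptor, at 0.63. At an unadjusted p below 0.05 this list held 1 higher, the cell surface gene Boc, and 1 lower, Chrna1, with 43.9 ± 3.11 CPM in HET and 52.7 ± 4.69 CPM in WT. Chrna1 had an adjusted p of 0.498 by edgeR, and its genotypes overlapped.

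Genes of satellite cell activation and growth factors had 14 of 19 tested, with 10 above 0, 4 below 0 and a median of 0.12. They ranged from Mstn, the inhibitor of muscle growth myostatin, at -0.80 to Top2a, a gene of dividing cells, at 0.85. Mstn was measured at 1.07, 1.90 and 1.69 CPM in HET mice and at 3.28, 2.27 and 2.53 CPM in WT mice. All HET mice were below the WT mice, and Mstn was the 1 lower gene of the list at an unadjusted p below 0.05, against 0 higher, with an adjusted p of 0.385 by edgeR. Hgf, a ligand that activates satellite cells, was at or below 0.203 CPM in every mouse and was not tested.

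**Figure D4:**
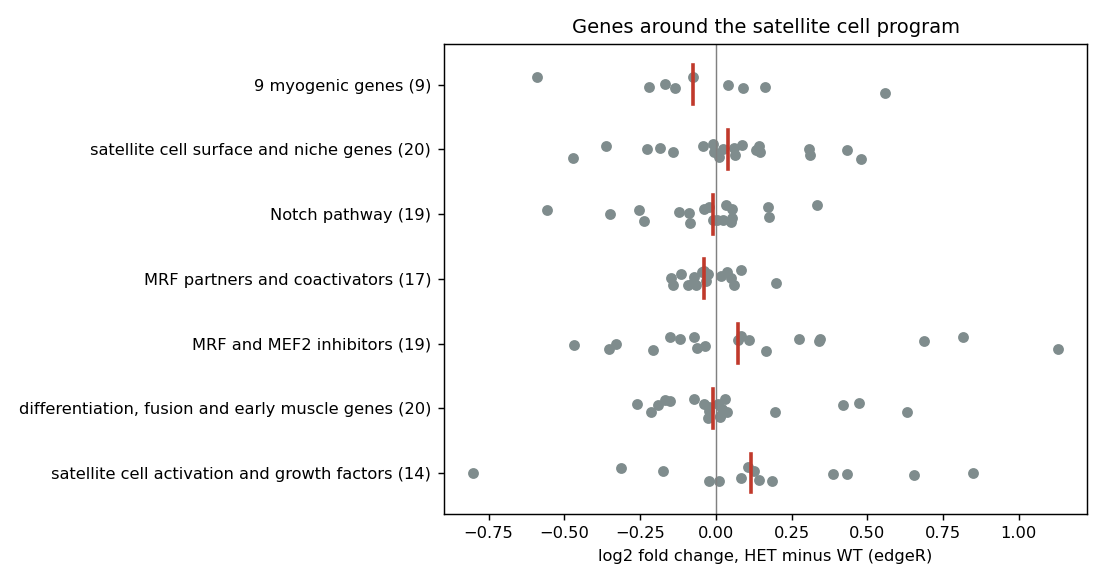
Log2 fold change of HET against WT (horizontal axis) of each tested gene of the 9 myogenic genes and the 6 lists around them (vertical axis, with the number tested). Each point is a gene and the red bar is the median, which lies between -0.07 for the 9 genes and 0.12 for the activation and growth factor genes.

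Markers of other cells in the muscle were also measured. All 10 macrophage markers were above 0 with a median log2 fold change of 1.40, 5 of them passed the adjusted threshold with edgeR, 7 with DESeq2 and 2 with limma-voom, and their summed level was between 86.1 and 124 CPM in HET mice and between 49.3 and 55.0 CPM in WT mice. All 8 markers of fibro-adipogenic progenitors were above 0 with a median of 0.60, between 1369 and 2003 CPM in HET mice and between 701 and 1058 CPM in WT mice, and 0 passed with edgeR, with 7 at an unadjusted p below 0.05, 4 called by DESeq2 and 0 by limma-voom. All 6 tenocyte markers were above 0 with a median of 0.98, and summed to between 344 and 579 CPM in HET mice and between 114 and 277 CPM in WT mice. All 5 adipocyte markers were above 0 with a median of 1.18, but each of them overlapped between the genotypes, and they summed to 70.0, 222 and 101 CPM in HET mice 1 to 3 and to 26.7, 24.6 and 97.1 CPM in WT mice 1 to 3. WT mouse 3 was thus above HET mouse 1. EdgeR and limma-voom called 0 of them, DESeq2 called 1 tenocyte marker, and 4 tenocyte and 0 adipocyte markers were at an unadjusted p below 0.05 by edgeR. No marker of these 4 lists was at 0 in all libraries. The part of these cells in the values of the 9 genes and of list genes they also make, such as Twist1 and Cd34, was not tested.

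Slow fiber markers summed to between 39568 and 42408 CPM in HET mice and between 40479 and 45124 CPM in WT mice, with 1 of 8 above 0. Fast fiber markers summed to between 46101 and 54846 CPM in HET mice and between 51281 and 53505 CPM in WT mice, also with 1 of 8 above 0. These sums hide the spread of Myh4, at 44.7, 2042 and 167 CPM in HET mice 1 to 3 and 1470, 1774 and 976 CPM in WT mice 1 to 3. Endothelial markers, with 3 of 7 above 0, smooth muscle and pericyte markers, with 5 of 8, and Schwann cell markers, with 5 of 7, had medians of -0.06, 0.07 and 0.08. In these 5 lists 0 genes passed the adjusted threshold with edgeR, DESeq2 or limma-voom, and 1 was higher and 1 lower at an unadjusted p below 0.05 by edgeR.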

How the data were processed

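The authors aligned single-end reads of 50 bases to GRCm38.p6 with STAR 2.7.3a and deposited raw read counts per gene made by featureCounts 2.0.3 in reverse-stranded mode. They also deposited a normalized signal, the count divided by a DESeq2 size factor per library. The normalized table was used to pick the 9 genes and the counts for every value. The authors' own DESeq2 comparison, with fold changes and p-values, was not used.

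Genes were filtered with filterByExpr (minimum count 10), scaled with TMM and tested with edgeR 4.0.16 (robust quasi-likelihood, genotype as the only term, 6 mice, two-sided, Benjamini-Hochberg over 14696 genes, threshold 0.05) in R 4.3.3. The SE is the log2 fold change over the square root of F. DESeq2 1.42.0 and limma-voom 3.58.1 were alternatives. RPKM used the exon length of the count table. The steps were tested on simulated data. Reads on genes were 36257011, 26790075 and 42014866 in HET mice 1 to 3 and 31019422, 28891513 and 50368796 in WT mice 1 to 3. Between libraries of a genotype the chi-square per gene was 16.5 to 46.8, against 1 for repeated counting.

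The 9 genes and the lists were chosen with earlier results of these data known. Of each list, genes past the threshold and those at the ends of the range were to be named. Genes counted at an unadjusted p were named after their values were seen. Nearest patterns used log2 CPM with a prior count of 2 over genes with a mean of at least 1 CPM, 2 per gene. Promoters are from RefSeq, and the windows of Pax7, Myf5, Myog, Cdh15 and Mef2c were searched. Megf10 was left out of this search.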

Additional observations from a re-analysis of the deposited data

How the results depend on the processing

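Under the 16 alternatives, 0 of the 9 genes passed an adjusted p of 0.05, and Myf5 kept its direction in all of them with a log2 fold change between -0.62 and -0.51. Leaving out each mouse in turn gave -0.26 to -0.16 for Pax7, -0.62 to -0.54 for Myf5 and 0.13 to 0.86 for Mymk. The sign turned in the same test for Myod1 (-0.048 to 0.34), Myog (-0.39 to 0.037), Myf6 (-0.00085 to 0.19), Cdh15 (-0.055 to 0.10), Megf10 (-0.32 to 0.00046) and Mef2c (-0.13 to 0.012). With the GC trend removed, Cdh15 was at -0.045 and Mef2c at 0.0129, and with the replicate block as well they were at -0.042 and 0.0132.

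Over all genes, 21 higher and 1 lower became 386 and 18 with no filter, 200 and 10 with DESeq2, 3 and 0 with limma-voom, 6 and 0 with non-robust dispersion, and 6 higher with the GC trend removed. Leaving out a mouse gave 0 to 77 higher and 0 to 6 lower. The 77 and 6 came without WT mouse 3, and 0 in both directions without HET mouse 1 or 3 or WT mouse 1 or 2. With no filter, 1 gene was called in each of 3 lists: Cd34 of the surface and niche genes, Twist1 of the inhibitors and Myh8 of the early muscle genes, with adjusted p of 0.00266, 0.00932 and 0.0313 by edgeR. The cause of these changes was not tested.

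The replicate numbers are shared by the genotypes. Deviations of same-numbered mice correlated at 0.203, -0.00578 and -0.0349, and those of different-numbered mice at -0.137 to 0.133. With 3 mice per genotype these values cannot settle whether the numbers mark pairs, and the main test did not take them as pairs. With the replicate block 114 genes were higher and 2 lower, with the GC trend also removed 94 and 2, and 0 of the 9 genes were called. Mymk had the lowest counts of the 9 genes, with 22 reads in WT mouse 3, although that library was the deepest.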

Other observations

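WT mouse 3, the lowest of the 6 mice for Myod1, Myog, Myf6 and Mymk, was also the lowest for the 5 cell cycle genes of the activation list. This was noticed after the values were seen and was not tested. The share of all genes lowest in WT mouse 3 was not counted, and a link between these genes and the myogenic genes was not tested. Mki67, a marker of cycling cells, was at 0.669 CPM in WT mouse 3 and between 2.16 and 8.48 CPM in the other 5 mice. Top2a was at 0.527 CPM there and between 1.75 and 6.79 CPM in the others, and Cdk1, the mitotic kinase gene, was at 0.101 CPM and between 0.633 and 1.56 CPM. Ccnd1, which drives entry into the cell cycle, was at 13.5 CPM against 21.2 to 36.0 CPM, and Ccnb1, a mitotic cyclin with few reads that was not tested, was at 0.0405 CPM against 0.142 to 0.479 CPM. Of the cell cycle inhibitor genes on the list of early muscle genes, Cdkn1c was lowest in WT mouse 3, at 22.7 CPM against 35.1 to 48.6 CPM, whereas Cdkn1a, at 77.5 CPM, lay within the 71.6 to 94.0 CPM of the other mice.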
